A study of Mus musculus with 6 samples.

Results

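The histone genes of primary mouse fibroblasts were examined in 3 libraries from control cells and 3 libraries from cells given the chemokine CXCL3 for 48 h. The members were the protein-coding rows whose symbol begins with Hist1h, Hist2h, Hist3h or Hist4h, the clustered genes, of which there were 65, together with 7 histone variant genes, H2afz, H2afx, H2afy, H2afv, H3f3a, H3f3b and H1f0. They made up 72 of the 51912 gene rows. The cells are labelled primary fibroblasts, the age given is 6 weeks, and the only stated difference between the groups is the treatment. The organ, the strain, the dose of CXCL3 and whether the replicates came from separate animals or cultures are not given in the labels, so the p-values measure the spread between these libraries, which may be technical. The values were TPM, a length-adjusted measure of the relative abundance of transcripts, which carries no read depth.

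Core histones H2A, H2B, H3 and H4 form the nucleosome, around which DNA is wrapped, and the linker histone H1 binds where the DNA enters and leaves it. Most clustered histone genes are transcribed in S phase, to package newly copied DNA, and their mRNAs normally end in a conserved stem-loop bound by the protein SLBP in place of a poly(A) tail. Variant genes lie outside the clusters, mostly contain introns, give polyadenylated mRNAs and are expressed throughout the cell cycle.

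In the annotation the stem-loop was mostly a feature of the clustered genes. Among the 50 clustered genes with at least 16 bases annotated after the stop codon, 44 (88%) held the stem-loop consensus there, against 0.375% of 21070 protein-coding genes. Of the 7 variants only H2afx, the H2A variant phosphorylated at DNA breaks, held it. The sites below are those of a linker, an H2A, an H3 and 2 H4 genes among the most abundant clustered members, of the low-level H2B gene Hist1h2bb and of H2afx. They were read from the GENCODE M21 transcripts (GRCm38) and are given 5′ to 3′ on the gene's strand, with the stem and loop in capitals and 5 bases on each side in lower case.
Hist1h1c, chr13:23739507-23739532, plus strand: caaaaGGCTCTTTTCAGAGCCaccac
Hist2h2aa1, chr3:96246027-96246052, plus strand: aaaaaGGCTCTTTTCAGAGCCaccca
Hist1h2bb, chr13:23747198-23747223, plus strand: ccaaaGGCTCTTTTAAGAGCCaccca
Hist2h3c2, chr3:96238480-96238505, minus strand: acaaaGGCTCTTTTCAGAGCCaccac
Hist1h4h, chr13:23531453-23531478, plus strand: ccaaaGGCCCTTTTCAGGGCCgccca
Hist1h4i, chr13:22040961-22040986, minus strand: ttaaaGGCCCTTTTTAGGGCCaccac
H2afx, chr9:44335235-44335260, plus strand: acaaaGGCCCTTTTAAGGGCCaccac
All matches in H1, H2A, H2B and H3 genes had the stem pair GGCTC and GAGCC. Of the 12 H4 genes with a match, 10 had GGCCC and GGGCC, which H2afx shared, and 2 had GGTCC and GGACC.

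The poly(A) signals AATAAA or ATTAAA lay in the last 50 bases of the annotated end of 17 of these 50 clustered genes (34%) and of 6 of the 7 variants, all but H2afy, against 80.3% of the protein-coding genes. The annotation of 22 clustered genes ran more than 100 bases past the stem-loop. The transcript of Hist1h1c, the H1.2 linker gene, went on for 840 bases after it and ended near a poly(A) signal. Hist1h2bc, an H2B gene and the most abundant clustered member, had 1 annotated transcript with no stem-loop consensus in the 742 bases after its stop codon. Such ends matter for reading the levels, since a library made from poly(A) RNA would hold little of an mRNA that ends at the stem-loop. How RNA was selected for these libraries is not given in the labels.

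The stretches before the start sites also differed in their motifs. Promoter sequence from RefSeq (GRCm38.p6) was matched for 60 of the 65 clustered genes and 6 of the 7 variants, and the 250 bases upstream of the start were searched on both strands for TATAAA, the TATA box, for CCAAT, bound by NF-Y, and for ATTTGCAT, the octamer bound by Oct-1 in H2B promoters. The 3 motifs were counted separately, and a site of one can overlap the end bases of another. Matches counted at any place in the window, so a TATAAA match need not be a TATA box. Other forms of the box were not searched. Some of the 60 clustered windows overlap, such as those of Hist1h2ag and Hist1h2bj, so 1 site can count for 2 genes. CCAAT was found in 81.7% of the clustered promoters, against 33.8% of the 32851 promoters of the same length. TATAAA was found in 48.3%, against 12.4%, and ATTTGCAT in 20%, against 1.6%. Of the 7 matched promoters of clustered genes of at least 20 TPM, 3 (42.9%) held CCAAT, 2 (28.6%) held TATAAA and 0 held ATTTGCAT. In these 2, Hist1h4m and Hist1h4i, TATAAA lay near the middle of the window. Of the 6 variant promoters 4 held CCAAT, 1 held TATAAA and 1 held ATTTGCAT. The sequences below belong to the 2 clustered genes with the smallest p, which are among those 3 with CCAAT, and to the variant with the smallest p, with CCAAT, or its reverse complement ATTGG, in capitals.
Hist1h1c, chr13:23738557-23738806, plus strand: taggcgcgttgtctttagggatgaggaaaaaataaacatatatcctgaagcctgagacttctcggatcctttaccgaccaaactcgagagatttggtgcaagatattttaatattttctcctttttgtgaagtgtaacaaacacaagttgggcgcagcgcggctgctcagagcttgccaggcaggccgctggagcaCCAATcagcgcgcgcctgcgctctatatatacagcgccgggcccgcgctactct
Hist2h2aa1, chr3:96245247-96245496, plus strand: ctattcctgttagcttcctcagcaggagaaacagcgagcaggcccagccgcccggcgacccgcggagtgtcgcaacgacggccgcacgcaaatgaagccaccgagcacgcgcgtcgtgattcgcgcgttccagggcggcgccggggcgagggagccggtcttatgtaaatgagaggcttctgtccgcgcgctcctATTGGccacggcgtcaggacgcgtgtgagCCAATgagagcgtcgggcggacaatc
H2afz, chr3:137864237-137864486, plus strand: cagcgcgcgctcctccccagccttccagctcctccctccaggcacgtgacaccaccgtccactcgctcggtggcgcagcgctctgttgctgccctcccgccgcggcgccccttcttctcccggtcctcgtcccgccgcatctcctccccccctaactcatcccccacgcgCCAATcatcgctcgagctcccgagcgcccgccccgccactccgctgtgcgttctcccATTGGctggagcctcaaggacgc
A match is a description of the letters in this window. The Hist1h1c promoter held CCAAT in 1 place, and those of Hist2h2aa1 and H2afz held it in 2 places each, so the motif was present before 2 genes that lay lower in the CXCL3 libraries and before 1 that lay higher.

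Several facts of the libraries touch the values. Controls 2 and 3 stood apart from the other 4 libraries on the first principal component, which held 52.9% of the variance. In these 2 libraries the deviation of a gene's level from its mean was related negatively to transcript length across genes (Spearman correlations of -0.50 and -0.48), and in the other 4 positively (0.20 to 0.45). On the log2 scale the controls had a median SD per gene of 0.20 and the CXCL3 libraries of 0.086. Of the tested members 29 of the 37 clustered genes, including all 8 of at least 20 TPM, had transcripts of up to 1600 bases, but only H2afz and H2afx, 2 of the 7 variants, did, so both classes also differ in length. The clustered genes are set beside short transcripts below. Values without controls 2 and 3 compare the 3 CXCL3 libraries with control 1 alone (n = 1) and are given as a description. All 10 macrophage markers of a fixed list were measured. Their summed level was 15069 to 18080 TPM in the controls and 14832 to 14923 in the CXCL3 libraries. The 8 fibroblast markers summed to 2786 to 3726 and 3021 to 3131, with Lum near 0. Lyz2 alone stood at 13259.9 to 16165.5 TPM in the controls and 13114.6 to 13243.5 in the CXCL3 libraries. The macrophage sum thus exceeded the fibroblast sum through this 1 gene, but other macrophage markers were also high. Adgre1, Cd68 and Cd14 had means over all libraries of 444, 289 and 262 TPM, while Ptprc and Fcgr1 had 17.1 and 14.6. The fibroblast sum in turn leaned on Vim, with a mean of 1626 TPM. Col1a1, Col1a2 and Dcn had 662, 506 and 300 TPM, and Pdgfra, Pdgfrb and Thy1 had 12.9, 22.0 and 20.7. Markers of lymphocytes (0 to 0.14 TPM), epithelial cells (0.99 to 1.96) and endothelial cells (1.63 to 3.64) were near 0. Markers of acinar cells summed to 23.5 to 27.4 TPM, nearly all of it from Cela1 (23.4 to 27.3). The part of the macrophage RNA in the histone values was not tested, and in bulk RNA fewer cells of a type and less RNA per cell cannot be told apart.

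Levels spanned a wide range within the clustered class, and few genes carried most of it. Hist1h2bc alone held 42.8% to 47.8% of the clustered TPM per library, and together with Hist1h1c, Hist2h2aa1 and Hist2h2aa2 it held 76.7% to 81.0%. Only 8 clustered genes had a mean level of at least 20 TPM. Another 29 passed the filter of 1 TPM in at least 3 libraries with means from 0.73 to 10.6 TPM, and 28 did not pass it. Of those, 6 were listed at 0 in every library, namely Hist1h2ba, Hist1h2aa, Hist1h4b, Hist2h2ab, Hist1h2ao and Hist1h3h. By family, 3 of 6 H1 genes, 10 of 18 H2A, 8 of 16 H2B, 7 of 12 H3 and 9 of 13 H4 genes passed. All 7 variants passed, with mean levels from 31.6 TPM for H2afv to 645 TPM for H3f3a.

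**Figure D1:**
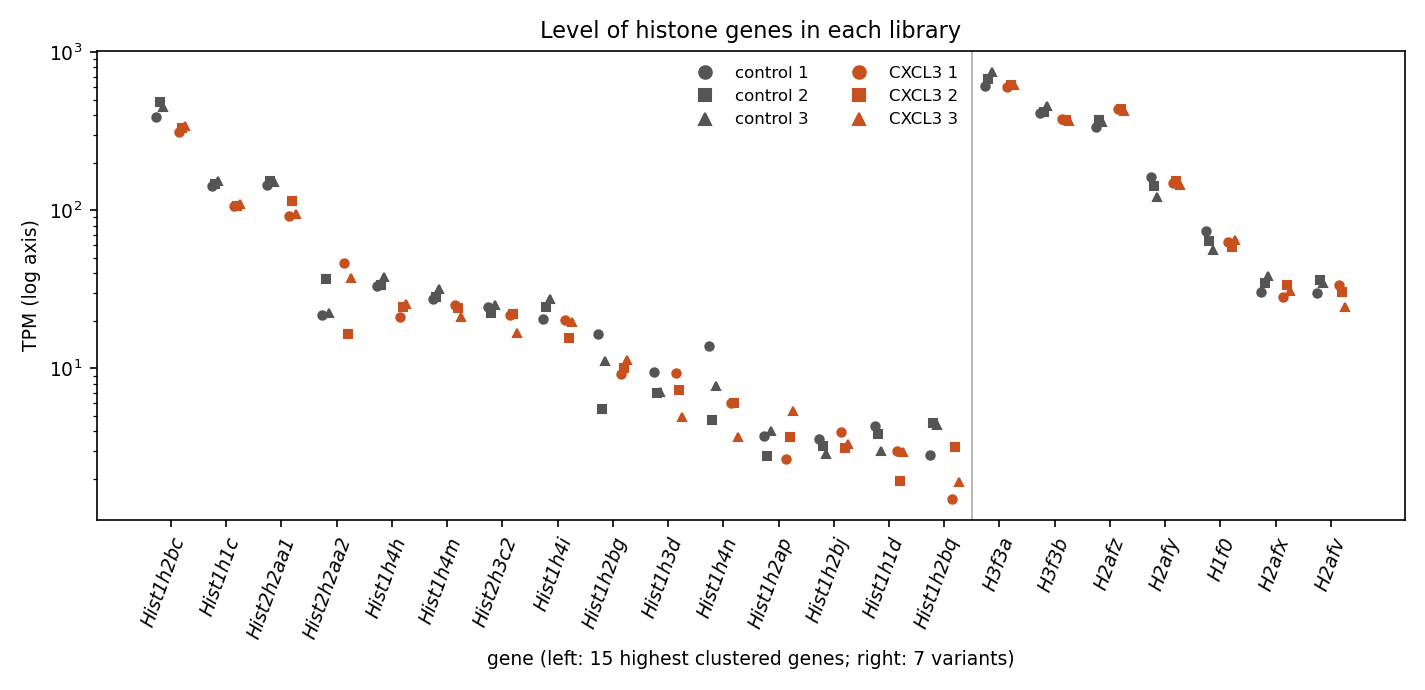
TPM (log axis) of the 15 clustered genes with the highest mean and of the 7 variants, with 1 point per library, controls in one colour and CXCL3 libraries in the other. Among the clustered genes Hist1h2bc sits near the variants H3f3a, H3f3b and H2afz, and most of the others lie below 50 TPM.

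The clustered genes of high level lay lower in the CXCL3 libraries, although no histone gene passed the adjusted threshold. With limma on log2(TPM + 1) and Benjamini-Hochberg adjustment over 13139 genes, 0 of the 37 tested clustered genes and 0 of the 7 variants had an adjusted p under 0.05, against 0.16% of all genes tested, of which 0.129% were lower and 0.0304% higher in CXCL3. At an unadjusted p under 0.05, 9 clustered genes were lower (5.65% of all genes) and 2 were higher (5.93%). The 3 CXCL3 libraries lay below all 3 controls in 10 of the 37 clustered genes, or 27.0%, against 9.31% of all genes, and above them in 1, against 7.92%. Of the 37 fold changes 24 were negative (64.9%, against 37.7% of all genes), with a median of -0.25, against 0.07 over all genes. Among the 8 genes of at least 20 TPM, 7 did not overlap and all of these were lower in CXCL3, with a median over the 8 of -0.40. The cut of 20 TPM was not part of the plan, and no share was computed for all genes of like level. Among the 29 of lower level 3 lay below and 1 above, with a median of -0.13. Hist1h2bb, among those below, and Hist1h3e, the 1 above, passed the filter only through the group where they were high. Their entry into these counts was thus tied to their direction.

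Short transcripts as a whole also lay lower. Of the 1613 protein-coding genes with transcripts of up to 1600 bases, 72.2% had a negative fold change, 22.4% had CXCL3 libraries below all controls and the median was -0.10. Of the 97 with transcripts of up to 600 bases, 64.9% were negative and 13.4% lay below. Of the 29 clustered genes within 1600 bases, 65.5% were negative and 31.0% lay below, with a median of -0.31. The share of negative fold changes among the clustered genes was thus no larger than that of short transcripts, while their median was lower. Control 1, whose length trend was like that of the CXCL3 libraries, lay above all 3 of them in 19 of the 37 clustered genes (51.4%, against 48.0% of all genes) and in 7 of the 8 of at least 20 TPM. With the trend on length and GC content removed, 23 of 37 fold changes were negative, and the median was -0.23, against -0.0038 over all genes.

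**Figure D2:**
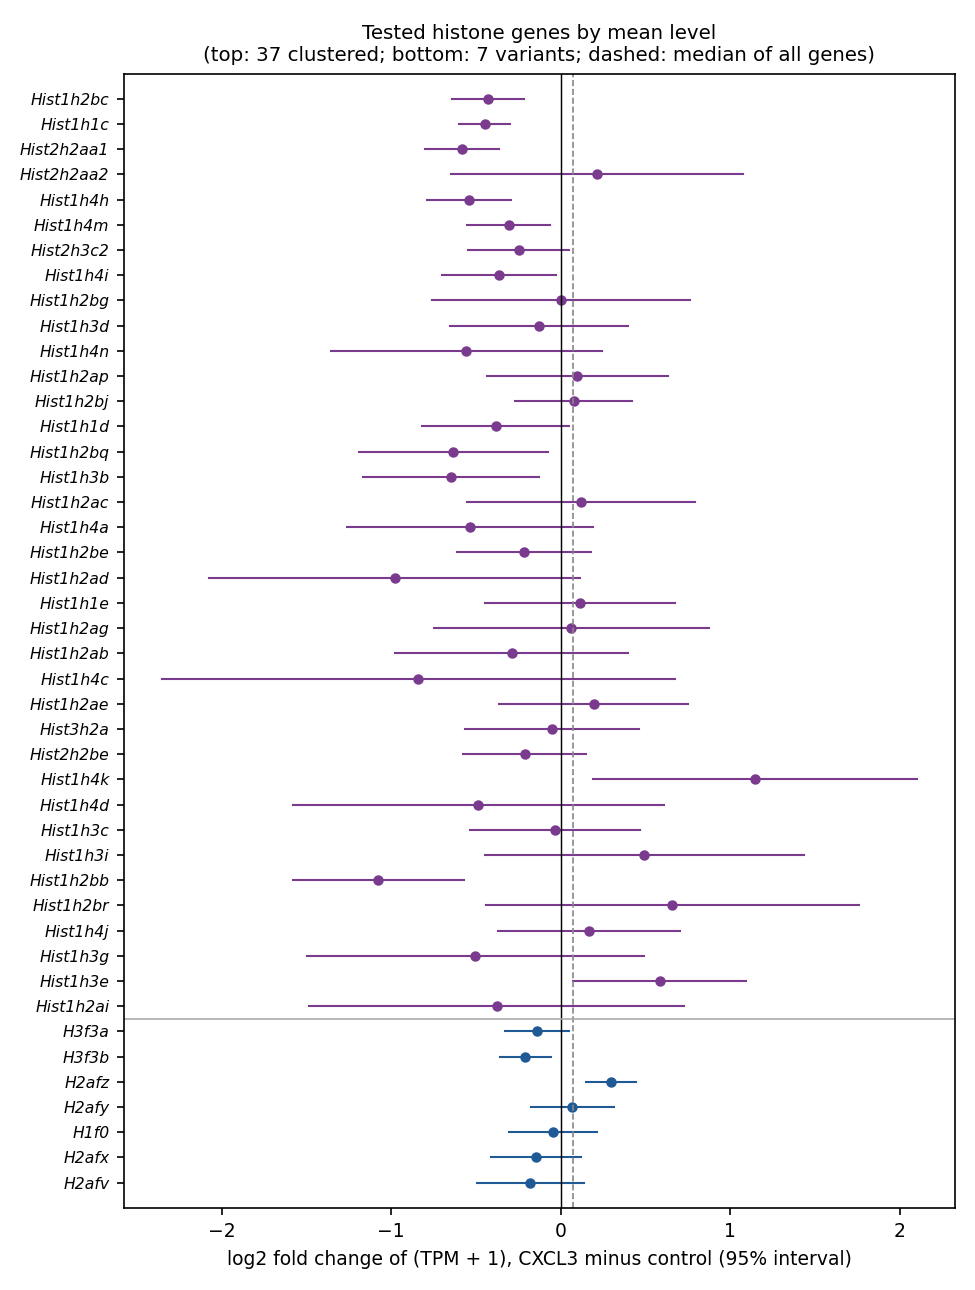
Log2 fold change of (TPM + 1), CXCL3 minus control, with its 95% interval, for the 37 tested clustered genes and the 7 variants, ordered by mean level. The intervals of the highest clustered genes except Hist2h2aa2 lie mostly to the left of 0, H2afz lies to the right, and the intervals widen for genes of low level.

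Among the linker histones Hist1h1c had the smallest p of all members. Its level was 141, 147 and 153 TPM in the controls and 107, 106 and 110.03 TPM in the CXCL3 libraries. The groups did not overlap, and the spread within each was small: the means were 147 ± 5.80 and 108 ± 2.27 (SD, n = 3 each). The log2 fold change was -0.45 ± 0.065 (SE), with an adjusted p of 0.0803 in limma. With controls 2 and 3 left out it was -0.39, and with the trend on length and GC content removed it was -0.40 and passed the threshold (adjusted p = 0.0437, against 0.228% of all genes called lower in that fit). The gene lies at chr13:23738808-23740367. Hist1h1d, the H1.3 gene, had 4.30, 3.83 and 3.02 TPM in the controls and 3.01, 1.93 and 2.94 in the CXCL3 libraries. Those groups touched without overlapping, with a log2 fold change of -0.38 ± 0.19 (adjusted p = 0.457).

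The H2A level came mainly from a pair of near-identical genes on chromosome 3. Hist2h2aa1 had 145, 154 and 150.1 TPM in the controls and 91.7, 114 and 94.4 in the CXCL3 libraries, so all 3 CXCL3 values were lower. Its log2 fold change was -0.58 ± 0.094 (limma adjusted p = 0.110). Hist2h2aa2 had 21.8, 36.8 and 22.4 TPM in the controls and 46.1, 16.5 and 37.1 in the CXCL3 libraries, which overlapped. Every window of 50 bases in these 2 transcripts also occurs in another gene's transcript, so how their reads were split is uncertain. CXCL3 2, with the highest Hist2h2aa1 value of its group, had the lowest Hist2h2aa2 value. Summed, the pair had 167, 191 and 172 TPM in the controls and 138, 130.5 and 131 in the CXCL3 libraries, again without overlap and 1.33 times higher in the controls. With the overlapping genes Gm20632, Gm20633 and Gm20634 added, the sums were 199, 211 and 198 against 164, 157 and 159 TPM. Hist1h2ap, an H2A gene of lower level, had 3.51 ± 0.641 and 3.92 ± 1.38 TPM, and its groups overlapped.

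Among the H2B genes Hist1h2bc dominated. It had 389, 487 and 448 TPM in the controls and 310.4, 329 and 340.4 in the CXCL3 libraries, with every CXCL3 value below the lowest control. The means were 441 ± 49.0 and 326 ± 15.1 TPM, and the log2 fold change was -0.43 with a 95% interval from -0.64 to -0.22 (limma adjusted p = 0.171). It was -0.25 with controls 2 and 3 left out, a smaller difference than with all 6 libraries. Hist1h2bg had 16.4, 5.50 and 11.2 TPM against 9.16, 10.1 and 11.4, a scattered control group around the CXCL3 values, and a log2 fold change of 0.0018 ± 0.33. Hist1h2bj also overlapped (3.24 ± 0.360 and 3.47 ± 0.423 TPM). Hist1h2bq, with 97.3% of its windows shared with Hist1h2br, had 2.82, 4.51 and 4.36 TPM against 1.5, 3.17 and 1.90, which overlapped (log2 fold change -0.63 ± 0.24, adjusted p = 0.395). Hist1h2bb, picked after its values were seen, had 1.84, 1.81 and 2.00 TPM in the controls and 0.60, 0 and 0.60 in the CXCL3 libraries. It passed the filter through the controls alone, so its place among the tested genes was tied to its direction. Among tested clustered genes under 20 TPM it had the lowest p (log2 fold change -1.08 ± 0.22, limma adjusted p = 0.157).

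The clustered H3 genes were few and low. Hist2h3c2 had 24.6, 22.3 and 25.1 TPM in the controls and 21.8, 21.9 and 16.8 in the CXCL3 libraries, where 2 of the 3 CXCL3 values lay just under the lowest control (log2 fold change -0.25 ± 0.13, adjusted p = 0.464). Its windows are shared with Hist2h3c1 to 63.5%, and summed with it the groups were 24.6, 26.9 and 27.9 against 21.8, 21.9 and 17.3 TPM. All windows of Hist2h3c1 also occur in the overlapping gene Gm20634, which was not part of this sum. Gm20634 had 26.7, 16.2 and 21.3 TPM in the controls and 21.9, 22.25 and 22.6 in the CXCL3 libraries, which overlapped. How reads were split among these genes is uncertain. Hist1h3d had 9.46, 6.96 and 7.05 TPM against 9.42, 7.34 and 4.94, which overlapped. Hist1h3e was the 1 of the 37 tested clustered genes whose CXCL3 libraries lay above all controls. Its levels were 1.11, 1.31 and 1.12 TPM against 0.91, 0.10 and 0.46 in the controls (limma adjusted p = 0.392). It passed the filter of 1 TPM through the CXCL3 libraries alone, so its place among the tested genes was tied to its direction. Hist1h3b, picked after its values were seen, had 3.94, 3.47 and 3.52 TPM in the controls and 1.15, 2.84 and 2.13 in the CXCL3 libraries (adjusted p = 0.362).

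The H4 genes encode 1 protein from many copies, and 3 of the 8 clustered genes of at least 20 TPM belong to them. Hist1h4h had 33.2, 33.7 and 37.6 TPM in the controls and 21.02, 24.6 and 25.4 in the CXCL3 libraries, without overlap (log2 fold change -0.54 ± 0.11, limma adjusted p = 0.157). Hist1h4m had 27.5, 28.3 and 31.6 TPM against 24.99, 24.1 and 21.03, also without overlap (log2 fold change -0.31 ± 0.11, adjusted p = 0.362). Hist1h4i had 20.5, 24.5 and 27.5 TPM against 20.2, 15.7 and 19.7, where control 1 and CXCL3 1 nearly met (log2 fold change -0.36 ± 0.14, adjusted p = 0.419). Hist1h4m shares 89.8% of its windows with Hist1h4n, at 13.8, 4.73 and 7.73 TPM against 6.05, 6.07 and 3.66. The sum of both was 41.2, 33.1 and 39.4 TPM in the controls and 31.04, 30.2 and 24.7 in the CXCL3 libraries, so the order held for the sum. Hist1h4k, among the 3 smallest p with a higher value, was listed at 0 in controls 2 and 3 and at 1.89 TPM in control 1, against 2.41, 2.56 and 1.58 (log2 fold change 1.15 ± 0.41, adjusted p = 0.376). With controls 2 and 3 left out its log2 fold change was 0.13. Hist1h2br, an H2B gene also among those 3, was likewise listed at 0 in controls 2 and 3, with 2.02 TPM in control 1, against 1.67, 0.48 and 2.01. It shares 88.4% of its windows with Hist1h2bq, so the split of reads between them is uncertain. Their sum was 4.84, 4.51 and 4.36 TPM in the controls and 3.17, 3.65 and 3.91 in the CXCL3 libraries, lower in CXCL3 without overlap, unlike either gene alone.

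The variants of the same histone types did not follow 1 direction. H2afz encodes H2A.Z, a replacement H2A found at promoters and enhancers. Its level was 334, 369.9 and 359 TPM in the controls and 439, 437 and 427 in the CXCL3 libraries, so all 3 CXCL3 values lay above the highest control. The means were 354 ± 18.6 and 434.5 ± 6.70 TPM, 1.23 times higher in CXCL3, and the log2 fold change was 0.29 ± 0.063 (limma adjusted p = 0.172). With controls 2 and 3 left out it was 0.38, and with the trend on length and GC content removed it was 0.37 and passed the threshold (adjusted p = 0.0400, against 0.0989%). H2afz shares 60.8% of its windows with a transcript of Tmcc1, which stood at 14.0 to 18.2 TPM. The other H2A variants overlapped between the groups: H2afy, which encodes macroH2A1, had 142 ± 19.97 and 148 ± 3.96 TPM. H2afx had 34.5 ± 4.09 and 31.0 ± 2.65 TPM, and H2afv, the second H2A.Z gene, had 33.5 ± 3.20 and 29.7 ± 4.70 TPM. The 95% intervals of the log2 fold change were -0.18 to 0.31 for H2afy, -0.41 to 0.12 for H2afx and -0.49 to 0.14 for H2afv.

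The pair H3f3a and H3f3b encode H3.3, the H3 form deposited outside replication. H3f3b had 414, 417 and 458.5 TPM in the controls and 378, 369 and 367 in the CXCL3 libraries, without overlap (log2 fold change -0.21 ± 0.064, unadjusted p = 0.0127, limma adjusted p = 0.323). H3f3a had 614, 672 and 747 TPM against 601, 618 and 619, where 2 CXCL3 libraries lay above control 1 (log2 fold change -0.14 ± 0.080, adjusted p = 0.478). With controls 2 and 3 left out the log2 fold changes were -0.16 and -0.0028. H1f0, the linker histone of slowly dividing and differentiated cells, had 74.2, 63.6 and 56.0 TPM against 63.2, 58.5 and 64.7, which overlapped (log2 fold change -0.047 ± 0.11).

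Summed over genes, the clustered class differed more than the variants. The 65 clustered genes summed to 909, 1017 and 983 TPM in the controls and 719.8, 729.7 and 738 in the CXCL3 libraries, without overlap and 1.33 times higher in the controls. Without Hist1h2bc the sums were 528 ± 7.63 and 402 ± 6.22 TPM. Outside the 4 highest genes they were 205 ± 10.1 and 162 ± 5.21 TPM, a ratio of 1.27. The 7 variants summed to 1657, 1737 and 1816 TPM in the controls and 1691, 1699 and 1677 in the CXCL3 libraries, which overlapped, with a ratio of 1.03. That sum joined genes of both directions. Of the 7 fold changes 5 were negative (71.4%, against 64.9% of the clustered genes), and H2afz and H2afy were positive. H3f3a and H3f3b together summed to 1028, 1089 and 1205 TPM in the controls. In the CXCL3 libraries they summed to 979, 987 and 986, lower without overlap (ratio 1.13). The clustered to variant ratio was 0.549, 0.586 and 0.541 in the controls and 0.426, 0.429 and 0.440 in the CXCL3 libraries. Its log2 difference was -0.37, given without a test, and it was -0.35 with Hist1h2bc left out, -0.35 with controls 2 and 3 left out and -0.31 with the trend on length and GC content removed.

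The sums of all families of clustered genes were lower in the CXCL3 libraries, with ratios of control to CXCL3 of 1.36 for H1, 1.30 for H2A, 1.34 for H2B, 1.20 for H3 and 1.36 for H4. In no family did the groups overlap. The H4 sums were 104, 105 and 112 TPM against 80.5, 80.03 and 76.02. The H3 sums were 41.0, 42.5 and 46.1 TPM against 39.3, 39.1 and 29.4, where CXCL3 3 alone was far lower. Most family sums rested on 1 or 2 genes. Without Hist2h2aa1 and Hist2h2aa2 the H2A sums were 24.9, 16.8 and 16.5 TPM against 16.7, 17.4 and 17.8, which overlapped, and the median log2 fold change of the 10 tested H2A genes was 0.0063, with 5 negative. Without Hist1h2bc the H2B sums were 33.6, 22.4 and 29.2 TPM against 21.9, 22.6 and 27.1, and overlapped too. The H1 sums without Hist1h1c (6.67 ± 1.43 and 5.74 ± 0.401 TPM) and the H3 sums without Hist2h3c2 (19.2 ± 2.50 and 15.8 ± 2.74 TPM) likewise overlapped. The H4 sums without Hist1h4h did not, at 70.8, 71.01 and 74.5 TPM against 59.5, 55.4 and 50.6. The balance of variant to clustered H2A also differed, since H2afz had 1.74, 1.78 and 1.90 times the level of the clustered H2A genes in the controls and 2.84, 2.96 and 2.86 times in the CXCL3 libraries. For H3 the ratio of H3f3a and H3f3b to the clustered H3 genes was 25.1, 25.6 and 26.1 against 24.9, 25.2 and 33.5, which overlapped.

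**Figure D3:**
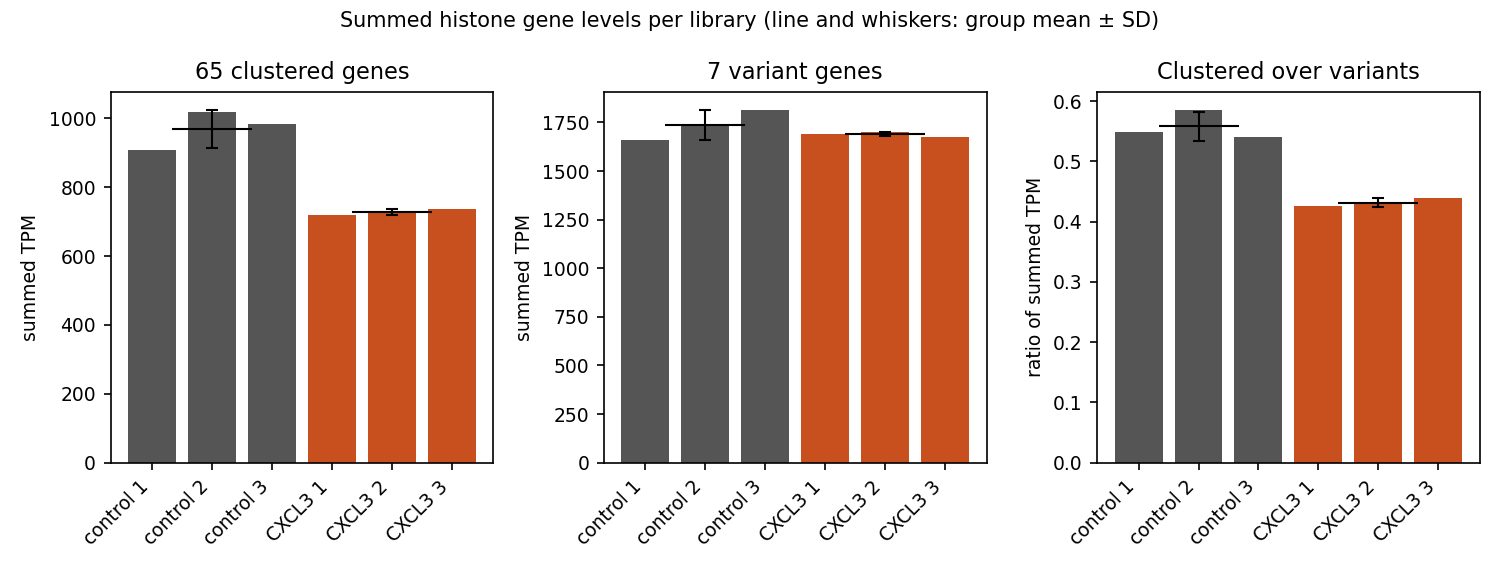
Summed level per library of the clustered genes and of the variants, and the ratio between both, with the group mean ± SD (n = 3 each). The clustered sums of the CXCL3 libraries lie between 719.8 and 738 TPM, all under the lowest control of 909 TPM, while the variant sums overlap.

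Genes that act around histone supply did not lie lower with the clustered genes. Of 25 S phase genes, all tested, 0 passed the threshold (0.16% of all genes) and 22 had positive fold changes. In 14 (56%) the CXCL3 libraries lay above all controls, against 7.92% of all genes. The list had a median log2 fold change of 0.19, and 0 of its genes lay below, against 9.31% of all genes. Pcna, the sliding clamp of DNA replication, had 160.1, 165 and 168 TPM in the controls and 186, 186 and 192 in the CXCL3 libraries (limma adjusted p = 0.328). Rrm2, a subunit of ribonucleotide reductase, had 41.7, 36.6 and 40.7 TPM against 51.6, 52.3 and 44.8 (adjusted p = 0.327). Pola1, the catalytic subunit of DNA polymerase alpha, had 2.69, 2.08 and 1.79 TPM against 3.83, 4.11 and 3.48 (adjusted p = 0.266). In these 3 genes the groups did not overlap and CXCL3 was higher. The median deviation of the S phase genes from their means was 0.00059 in control 1, -0.15 and -0.17 in controls 2 and 3, and 0.10 to 0.12 in the CXCL3 libraries, so control 1 lay between the others, and the part of the length trend in these values was not tested.

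Of 22 histone chaperones and remodellers 20 had positive fold changes, 0 passed (0.16% of all genes), 3 (13.6%) lay above all controls, against 7.92% of all genes, and the median was 0.22. The median deviation of the list was 0.075 in control 1, within the 0.064 to 0.13 of the CXCL3 libraries, and -0.097 and -0.26 in controls 2 and 3, so the difference of the list moved with the 2 libraries that stood apart. Chaf1a, a subunit of the CAF-1 complex that deposits H3 and H4 on new DNA, had 8.37, 6.38 and 5.25 TPM against 10.9, 9.85 and 10.5 (adjusted p = 0.287). Npm1, nucleophosmin, had 777, 746 and 680.0 TPM against 869, 859 and 863 (adjusted p = 0.295). Srcap, which loads H2A.Z, was at 9.09 TPM in control 1 and at 1.62 and 1.87 in controls 2 and 3, against 10.7, 8.18 and 6.93, so the groups overlapped (adjusted p = 0.426). Both low values were in the controls that stood apart.

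Of 13 tested genes of histone mRNA 3′ end processing and decay 0 passed (0.16% of all genes), 2 (15.4%) lay above all controls, against 7.92% of all genes, and the median was 0.090. Slbp, which encodes the stem-loop binding protein, had 35.2, 31.4 and 33.9 TPM against 32.7, 33.7 and 35.8, which overlapped. Cstf2 (9.44 ± 1.57 and 12.5 ± 0.477 TPM) and Sympk (59.9 ± 4.45 and 69.9 ± 2.38 TPM), both parts of the cleavage machinery, lay above without overlap, with adjusted p of 0.377 and 0.382. Upf1, a helicase of mRNA decay, had 17.9 ± 3.82 and 22.6 ± 1.06 TPM and overlapped. Of 11 genes of histone gene transcription 0 passed (0.16% of all genes), 8 had positive fold changes and the median was 0.10. All 11 overlapped, while 9.31% of all genes lay below all controls and 7.92% above. Ccne2, cyclin E2, had 6.10 ± 1.76 and 8.74 ± 0.789 TPM (adjusted p = 0.413), Hinfp, an activator of H4 genes, 4.72 ± 1.92 and 7.08 ± 1.16 TPM, and Nfya, a subunit of NF-Y, 22.4 ± 8.63 and 28.7 ± 0.666 TPM.

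**Figure D4:**
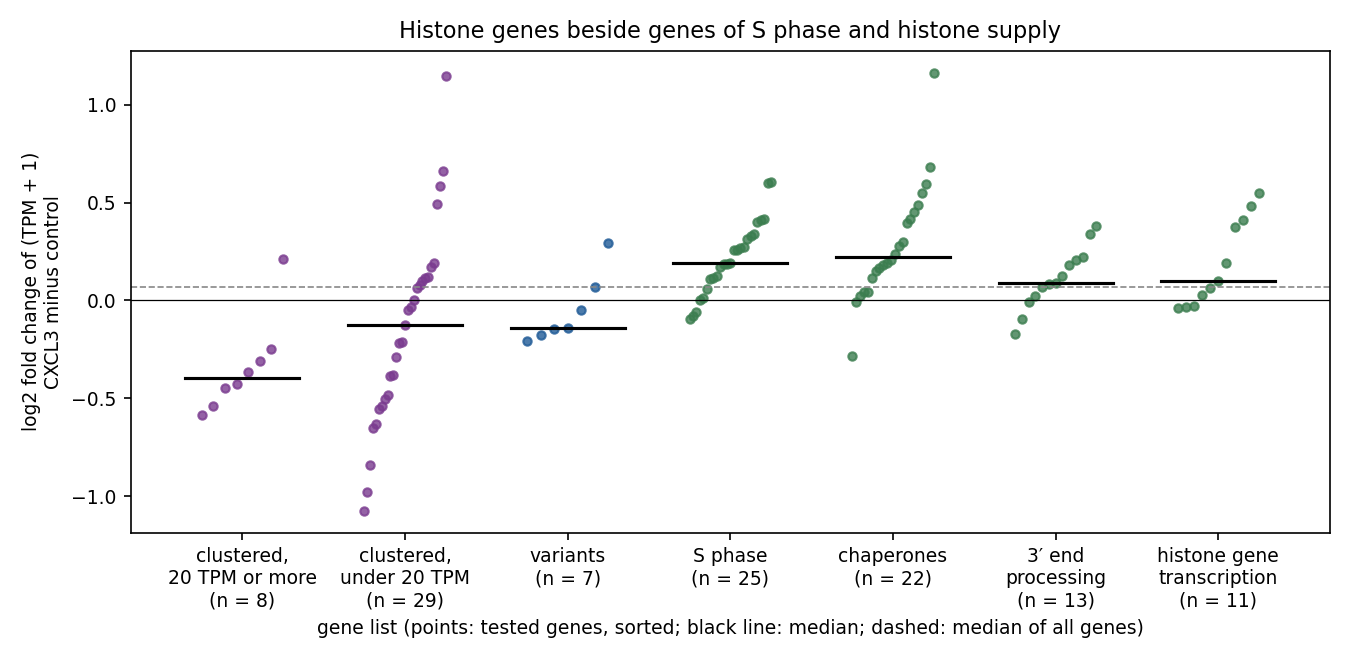
Log2 fold change of (TPM + 1), CXCL3 minus control, of each tested gene, sorted within its list, with the median of the list and, dashed, the median of all genes. The clustered genes are drawn in 2 columns, with a median of -0.40 at 20 TPM or more and of -0.13 under 20 TPM. The S phase genes have a median of 0.19.

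Other histone variants outside the rule showed no common shift: 4 of 8 were tested, 0 passed (0.16% of all genes), all overlapped and the median was -0.0027. Over all genes 9.31% lay below all controls and 7.92% above. H2afj, an H2A variant, had 126, 169 and 106 TPM against 121, 127 and 117, H1fx had 9.83 ± 1.16 and 9.80 ± 1.33 TPM, and Cenpa, the centromeric H3, had 11.6 ± 1.67 and 12.1 ± 1.14 TPM. A list of 10 genes whose RNAs carry no poly(A) tail summed to 77.9, 96.5 and 86.5 TPM in the controls and 282, 80.2 and 269.6 in the CXCL3 libraries, so CXCL3 1 and CXCL3 3 were high and CXCL3 2 was like the controls. Rn7s1, an RNA of the signal recognition particle, had 28.3, 42.2 and 31.1 TPM against 115, 33.0 and 120.5, and Rn7sk had 9.67, 5.03 and 12.0 against 33.5, 8.24 and 15.1. The clustered histone sums of the 3 CXCL3 libraries were 729 ± 8.92 TPM. Hist1h2bc, with no stem-loop consensus annotated, held 43.1% to 46.1% of these sums. Whether RNA without a poly(A) tail had a part in the histone values was not tested. The list of 10 macrophage markers had a median log2 fold change of -0.062, with 6 negative and 4 positive. In 3 (30%) the CXCL3 libraries lay below all controls, against 9.31% of all genes. Only C1qa, a complement subunit, passed, against 0.129% of all genes called lower. It fell from 289 ± 38.6 to 167 ± 5.46 TPM (log2 fold change -0.78, limma adjusted p = 0.0493). The part of these markers in the histone values was not tested.

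The calls for single histone genes varied with control 1, with library weights and with the trend on length and GC content. Without control 1 limma called 10 clustered genes lower and 3 higher, and 2 variants lower and 1 higher, but then 7.17% of all genes were called lower and 25.2% higher. With that trend alone removed, Hist1h1c was called lower (0.228% of all genes) and H2afz higher (0.0989%). With library weights, where 3.04% of all genes were called lower and 7.96% higher, 4 clustered genes were called lower and 1 higher, and 1 variant in each direction. With the weights and the trend on length and GC content removed together, 2 clustered genes and 1 variant were called lower (2.14% of all genes) and 1 variant higher (1.45%). With controls 2 and 3 left out the control arm is 1 library, assumed to vary like the CXCL3 libraries, which alone give the spread. That fit called 0 members lower (0.396% of all genes) and H2afz higher (0.244%), and the call is not read as a replicated result. Without control 1 H2afz had an adjusted p of 0.00930, Hist1h1c of 0.00439 and Hist1h2bc of 0.00516. The signs of the fold changes of Hist1h2bc, Hist1h1c, Hist2h2aa1, Hist1h4h, H3f3b and H2afz stayed the same in all 21 alternatives run.

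**Figure D5:**
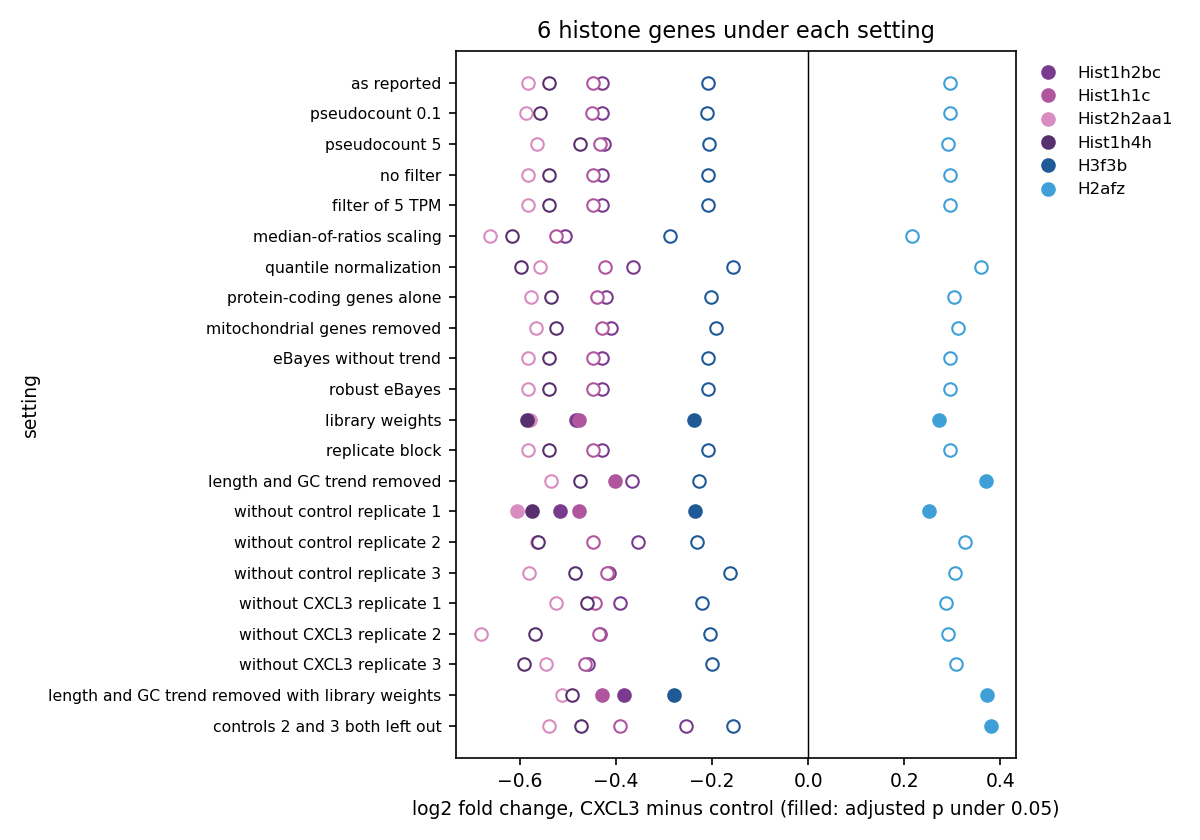
Log2 fold change, CXCL3 minus control, of Hist1h2bc, Hist1h1c, Hist2h2aa1, Hist1h4h, H3f3b and H2afz (colours) under the reported setting and each alternative, filled where the adjusted p was under 0.05. H2afz stays to the right of 0 and the other 5 genes to the left under each setting, and filled points occur under a few settings only.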

How the data were processed

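The authors deposited a table of TPM values per gene for 6 libraries, without counts. Per the submitters' processing notes, fastp, HISAT and RSEM were used with build GRCm38.p5; no version is given in the sources used here. TPM is relative to the other RNAs of a library and keeps no depth, and RSEM splits reads among similar genes. All 6 value columns matched a labelled sample (0 unmapped). Symbols, biotypes and coordinates came from GENCODE M21, which matched 51719 of 51912 rows. Genes with at least 1 TPM in at least 3 libraries (13139) were fitted together on log2(TPM + 1) with limma 3.58.1 (R 4.3.3; lmFit, eBayes with trend, two-sided, Benjamini-Hochberg, threshold 0.05), after a test on simulated data. Fold changes on this scale understate the change of low genes. An exact permutation of 3 against 3 libraries cannot give a p below 0.1. The members, lists and tests were chosen with earlier results of these data known, and the lists are not independent evidence. Genes were named by rule: all 7 variants, the 15 clustered genes of highest mean, any with an adjusted p under 0.05, the 3 clustered genes of smallest p in each direction, and per list those passing or else the 3 of smallest p. Outside this rule were Hist1h2bb and Hist1h3b, picked after their values were seen, and Slbp. Cell type markers named for their level, genes listed at 0 and genes sharing sequence with members were also outside it. A stretch counted as shared when it occurred without mismatch, over 50 bases, in another gene's transcript.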

Additional observations from a re-analysis of the deposited data

How the results depend on the processing

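The 4 counts of called genes were 0 and moved with the weighting, the length correction or the choice of libraries. With library weights, whose estimation stopped short of convergence, the clustered genes had 4 called lower and 1 higher and the variants 1 lower and 1 higher. With the length and GC trend removed these were 1 clustered gene lower and 1 variant higher. With both together, added after seeing the data, 2 clustered genes and 1 variant were lower and 1 variant higher. With controls 2 and 3 both left out, also added, 1 variant was higher, in a fit of 1 control library whose spread comes from the CXCL3 libraries alone. Leaving out single libraries gave 0 to 10 clustered genes lower, 0 to 3 higher, 0 to 2 variants lower and 0 to 1 higher, with the highest of each without control 1. The clustered to variant difference of -0.37 was -0.31 after removal of that trend and -0.39 to -0.34 without single libraries. Median-of-ratios scaling moved the median of all genes from 0.07 to 0.0002. The cause was not tested.

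Signs turned for members of small change or low level. Hist1h2bg was -0.021 with a pseudocount of 5, -0.066 with median-of-ratios scaling, -0.12 with quantile normalization and -0.64 without controls 2 and 3. H2afy was -0.0095 with median-of-ratios scaling, -0.043 after removal of that trend and -0.12 without controls 2 and 3. Quantile normalization gave -0.010 for Hist1h2ap and -0.034 for Hist1h2bj. Library weights gave 0.031 for H1f0 and 0.0062 for Hist1h3d, and 0.057 and 0.038 with the trend also removed. Without controls 2 and 3 H2afx was 0.029, Hist1h2bj -0.046 and Hist1h2br -0.40. Without single libraries the ranges were -0.39 to 0.32 for Hist1h2bg, -0.038 to 0.17 for H2afy, -0.11 to 0.29 for Hist1h2ap, -0.14 to 0.056 for H1f0, -0.31 to 0.091 for Hist1h3d and -0.075 to 0.64 for Hist2h2aa2.

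The labels do not say whether equal replicate numbers share a source. The correlations of same-numbered deviations were 0.12, -0.011 and 0.077, and control 2 correlated best with CXCL3 3 (0.13). With controls 2 and 3 standing apart, these correlations cannot decide whether the libraries were paired. With a replicate block 0 members were called, and 12 genes in all against 21. Depth is unknown, so members listed at 0 or near 1 TPM cannot be given a limit.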
